A study of Mus musculus with 23 samples.

Results

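The 10 genes described here encode hormones, granins, an enzyme and a transcription factor of enteroendocrine cells, and they were taken by symbol from the 24917 gene loci of the count file. They are the peptide hormone genes Gcg, Pyy, Insl5, Nts, Cck and Sct, the granin genes Chga and Chgb, Tph1, which encodes the enzyme that starts serotonin synthesis in the gut, and Neurod1, which encodes a transcription factor of the lineage. Each symbol stood at 1 locus. RNA from the colonic epithelium of male C57BL/6 mice (C57BL/6J in the study's methods) was sequenced after depletion of ribosomal RNA, in 23 libraries. All mice were 6 weeks old when the diets began and were kept on them for 43 weeks. LF mice received a diet with 10% fat throughout, HF mice a diet with 60% fat throughout, and HF-LF mice the high-fat diet for 15 weeks and the low-fat diet for the following 28 weeks. The labels carry a batch: batch 1 holds 4 LF, 3 HF and 4 HF-LF libraries, and batch 2 holds 4 LF, 3 HF and 5 HF-LF libraries. The epithelium came off the entire colon, so proximal and distal parts are mixed within a library. The labels do not tie the numbers of batch 1 to those of batch 2. Since the study's methods give fewer mice per regimen than there are libraries of a diet, some mice may enter a fit over both batches through more than 1 library.

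Enteroendocrine cells are scattered singly among the absorptive and goblet cells of the gut lining. They sense nutrients and microbial products, store peptide hormones in dense-core granules together with granins, and release them towards blood vessels and nerve endings. In the colon the L cells make the proglucagon products (GLP-1 and GLP-2), peptide YY and, distally, insulin-like peptide 5, while enterochromaffin cells make serotonin and are rich in chromogranin A.

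Promoter sequence is shown for the 4 hormone genes that were called higher in HF than in LF mice over both batches and for which it could be printed, and for Chga, whose level differed least between those diets. The sequences are those upstream of the RefSeq start site (GRCm38.p6), 5′ to 3′ on the strand of the gene, and stop before any annotated transcript start. Capitals mark the E-box CAGATG, a sequence that basic helix-loop-helix factors such as Neurod1 can bind. The windows are chr2:62483654-62483903 (minus strand) for Gcg, chr9:121495695-121495944 (minus strand) for Cck, chr11:102107833-102108026 (minus strand) for Pyy, chr10:102490419-102490668 (minus strand) for Nts and chr12:102554691-102554940 (plus strand) for Chga.
Gcg: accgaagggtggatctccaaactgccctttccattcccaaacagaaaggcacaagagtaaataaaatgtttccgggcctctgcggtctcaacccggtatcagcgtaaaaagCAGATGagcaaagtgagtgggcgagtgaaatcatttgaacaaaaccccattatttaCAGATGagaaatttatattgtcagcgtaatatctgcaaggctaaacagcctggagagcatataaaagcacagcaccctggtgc
Cck: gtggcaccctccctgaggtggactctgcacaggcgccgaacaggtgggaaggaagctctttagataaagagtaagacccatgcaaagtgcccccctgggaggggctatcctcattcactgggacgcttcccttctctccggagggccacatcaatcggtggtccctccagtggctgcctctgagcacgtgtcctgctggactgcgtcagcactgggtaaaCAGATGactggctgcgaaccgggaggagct
Pyy: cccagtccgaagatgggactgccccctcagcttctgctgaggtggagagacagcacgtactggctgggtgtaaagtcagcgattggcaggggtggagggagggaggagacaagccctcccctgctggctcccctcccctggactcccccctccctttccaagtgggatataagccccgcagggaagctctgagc
Nts: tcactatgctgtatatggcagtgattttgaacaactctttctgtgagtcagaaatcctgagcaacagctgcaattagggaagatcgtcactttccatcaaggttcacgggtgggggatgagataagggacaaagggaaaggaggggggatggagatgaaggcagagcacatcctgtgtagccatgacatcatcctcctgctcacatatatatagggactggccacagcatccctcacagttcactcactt
Chga: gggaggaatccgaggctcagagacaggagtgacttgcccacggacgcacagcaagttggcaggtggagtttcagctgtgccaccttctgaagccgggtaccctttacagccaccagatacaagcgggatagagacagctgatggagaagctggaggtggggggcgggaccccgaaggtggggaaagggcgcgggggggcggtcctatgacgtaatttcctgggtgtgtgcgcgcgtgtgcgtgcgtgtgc
In windows of 250 bases before the start site, CAGATG, searched on both strands, was present in 4 of the 10 genes: 2 copies in Gcg, at 139 and 83 bases before the start, and 1 copy each in Cck, Insl5 and Sct. It was present in 14.4% of the 32851 windows of the RefSeq table. The cyclic AMP response element TGACGTCA was found in Chgb alone among the 10, against 1.55% of all windows. TATAAA was found in Gcg, Insl5 and Sct, against 12.4% of all windows. The start sites used for Chgb and Insl5 lay inside their counted loci, 364 and 114 bases from the edge, so these 2 windows overlap the loci.

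Between 29189922 and 65320947 reads were counted per library. All 10 genes had reads in all 23 libraries and were tested in every fit. The lowest was Cck, with 12 to 78 reads per library, and the next was Neurod1, with 79 to 240. Levels are given as CPM, read counts scaled to a common library size with TMM factors within a batch, and 3 reads correspond to 0.0459 to 0.103 CPM. Together the 10 genes held 0.0196% to 0.0476% of the reads of a library. In LF mice their levels were 1.02 times (Tph1) to 1.86 times (Gcg) as high in batch 2 as in batch 1, so levels are compared within a batch. Across all genes, the library HF 3 of batch 1 correlated least with its batch (median r = 0.982 with the others, against at least 0.991 for every other library). Calls of the 10 genes that changed without it are named. The other gene lists, the markers and the correlations were not rerun without this library alone.

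Epithelial markers were high in every library: the summed level of Epcam, Cdh1, Vil1, Krt8 and Krt20 was between 8890 and 12400 CPM. Some neurons also make neurotensin and granins. The 10 enteric neuron markers summed to 3.29 to 8.12 CPM, most of it Ret (1.89 to 4.58 CPM) and Chat. The glial marker Sox10 had no read in 16 of 23 libraries. The 6 smooth muscle markers varied most. Their sum was 1.16 to 11.2 CPM in LF, 0.541 to 10.1 CPM in HF and 2.51 to 50.2 CPM in HF-LF libraries of batch 1, and 5.86 to 31.0, 0.858 to 4.68 and 1.84 to 15.3 CPM in batch 2. Their median log2 fold change over both batches was -1.37 in HF against LF and 1.58 in HF-LF against HF, and 0 of 6 were called in either (edgeR, with 1 lower and 3 higher at an unadjusted p under 0.05). In HF against LF of batch 2 alone their median was -2.40, all 6 were lower at an unadjusted p under 0.05 and 1, Actg2, was called (-3.01 ± 0.73, edgeR adjusted p = 0.0350), and 3 of the 4 fibroblast markers were lower at that limit (median -1.22). In batch 1 the median of the smooth muscle markers was 0.16. Among other markers over both batches, Pdgfra of fibroblasts, Axin2 of stem cells and Kit, listed for mast cells, were called lower in HF than in LF mice. Kit stood at 50.9 to 158 CPM in the libraries, while every other mast cell gene listed stayed at or below 7.84 CPM. Its change is therefore not read as one of mast cells. Smoc2 of stem cells and Tff3 of goblet cells were called higher, while the other 4 goblet markers differed by -0.31 to -0.10 and were not called. These calls stand beside 18.1% of all genes called in either direction. In HF-LF against HF over both batches, 1 of 5 stem cell markers and 1 of 3 tested mast cell genes were called higher. No marker was called lower there, and 5.44% of all genes were called higher and 4.9% lower. The part of these cells in the results below was not tested. In bulk RNA, fewer cells of a type and less RNA per cell cannot be told apart.

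**Figure D1:**
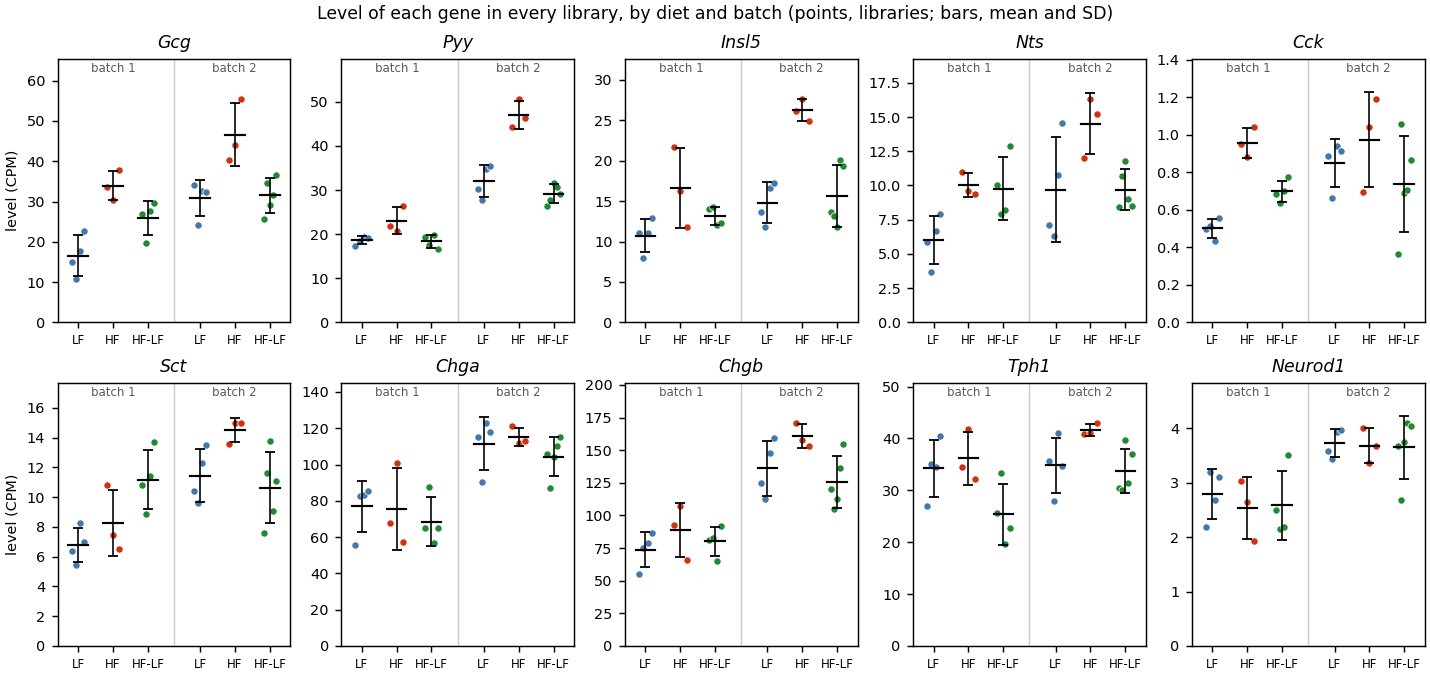
Level of the 10 genes in each of 23 libraries, in CPM on linear axes that start at 0, by diet within batch 1 (left of each panel) and batch 2 (right). Points are libraries, and bars are the mean and SD. The 3 HF libraries of batch 2 lie above all LF and HF-LF libraries for Gcg, Pyy and Insl5, while the diets overlap for Chga and Neurod1.

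Levels were compared between genes per kilobase of exon. In LF mice of batch 1 the order was Chga (40.9 CPM per kb), Pyy (29.7), Chgb (27.0), Gcg (15.2), Insl5 (14.8), Sct (12.7), Tph1 (7.19), Nts (4.83), Neurod1 (1.02) and Cck (0.432). Neighbours in this order overlapped between libraries, except Sct and Tph1, Nts and Neurod1, and Neurod1 and Cck. In HF mice of batch 2 the order began with Pyy (75.3 CPM per kb), Chga (61.3) and Chgb (58.6), and Pyy did not overlap with Chga there. In the other 5 groups Chga stood above Pyy, and the 2 overlapped. Cck was the lowest of the 10 in all 6 groups.

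The comparison of HF with LF mice asks what a long high-fat diet changes. Over both batches, 5 of the 6 hormone genes rose in HF mice: Gcg, Insl5, Nts, Cck and Pyy, by 0.44 to 0.80 on the log2 scale. The sixth, Sct, and the genes Chga, Chgb, Tph1 and Neurod1 were not called. No member was called lower. For Pyy and Gcg, HF lay above LF without overlap in each batch, 2 of 10 genes, against 2.29% of all genes tested. Called means an adjusted p under 0.05 by edgeR's quasi-likelihood F test, with Benjamini-Hochberg adjustment over all genes tested, and a fold change above 1.2. Of all 14385 genes tested, 9% were called higher, 9.11% lower and 18.1% in either direction. The median log2 fold change was 0.38 for the 10 genes and -0.01 for all genes tested.

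Gcg encodes proglucagon (locus at chr2:62474530-62483653, minus strand, mm10). In batch 1 its level was 14.9, 10.8, 17.8 and 22.8 CPM in the LF libraries, 33.6, 30.5 and 37.8 CPM in HF and 26.8, 19.7, 27.6 and 29.6 CPM in HF-LF. The HF libraries lay above all others, and HF-LF overlapped with LF. In batch 2 the values were 34.0, 24.2, 32.6 and 32.4 CPM in LF, 40.3, 44.1 and 55.4 CPM in HF and 25.7, 34.6, 29.1, 31.5 and 36.6 CPM in HF-LF, so HF again did not overlap with the other diets. HF against LF gave a log2 fold change of 1.03 ± 0.20 (SE, n = 3 and 4) in batch 1, with an edgeR adjusted p of 0.137, and 0.60 ± 0.14 in batch 2, with an edgeR adjusted p of 0.0293. Both batches gave 0.80 ± 0.14 (edgeR adjusted p = 0.00219). In batch 1 and over both batches this was the largest difference among the 10 genes.

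Pyy encodes peptide YY, which slows gut transit and curbs appetite (chr11:102106676-102107776, minus strand). Its level in batch 1 was 17.4, 18.5, 19.4 and 19.1 CPM in LF, 21.9, 20.7 and 26.5 CPM in HF and 19.4, 17.6, 19.8 and 16.7 CPM in HF-LF. Batch 2 had 30.3, 27.7, 34.8 and 35.4 CPM in LF, 44.3, 50.6 and 46.4 CPM in HF and 26.4, 27.7, 31.6, 30.8 and 29.2 CPM in HF-LF. In both batches every HF library lay above every LF and HF-LF library. On the log2 scale HF differed from LF by 0.31 ± 0.11 in batch 1 (edgeR adjusted p = 0.168), 0.55 ± 0.09 in batch 2 (edgeR adjusted p = 0.0106) and 0.44 ± 0.08 over both (edgeR adjusted p = 0.00176). Pyy had the lowest adjusted p of the 10 genes in batch 2.

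Insl5 encodes insulin-like peptide 5, a hormone of distal L cells (chr4:103017873-103026842, minus strand). LF libraries of batch 1 had 11, 7.94, 11.1 and 12.9 CPM, HF libraries 21.7, 16.3 and 11.8 CPM and HF-LF libraries 14.0, 14.3, 12 and 12.3 CPM. There the HF library 3, which stood apart across all genes, fell within the LF range. In batch 2 Insl5 was at 13.6, 11.8, 16.6 and 17.2 CPM in LF, 26.2, 27.6 and 24.9 CPM in HF and 13.7, 13.1, 11.8, 20.1 and 19.4 CPM in HF-LF. The HF libraries lay above all others. The log2 fold change was 0.63 ± 0.19 in batch 1 (edgeR adjusted p = 0.161), 0.83 ± 0.17 in batch 2 (edgeR adjusted p = 0.0259) and 0.73 ± 0.14 over both (edgeR adjusted p = 0.00308).

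Nts encodes neurotensin, a peptide that also acts as a transmitter in nerves (chr10:102481756-102490418, minus strand). Its level in batch 1 was 5.88, 3.68, 6.64 and 7.90 CPM in LF, 11, 9.63 and 9.37 CPM in HF and 10.0, 7.94, 8.23 and 12.9 CPM in HF-LF. Both HF and HF-LF lay above every LF library there. In batch 2 LF libraries had 7.09, 6.28, 10.8 and 14.6 CPM, HF libraries 12, 16.3 and 15.2 CPM and HF-LF libraries 8.46, 10.7, 11.8, 8.98 and 8.47 CPM. LF library 4 of batch 2 fell within the HF range. The log2 fold change of HF against LF was 0.73 ± 0.23 in batch 1 (edgeR adjusted p = 0.162), 0.57 ± 0.23 in batch 2 (edgeR adjusted p = 0.0994) and 0.64 ± 0.19 over both (edgeR adjusted p = 0.0163).

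Cck encodes cholecystokinin, a hormone mostly of the small intestine (chr9:121489824-121495694, minus strand), and lay between 0.367 and 1.19 CPM. Its level was 0.499, 0.516, 0.434 and 0.558 CPM in LF, 0.949, 0.881 and 1.04 CPM in HF and 0.687, 0.638, 0.702 and 0.774 CPM in HF-LF of batch 1, where the 3 diets did not overlap. In batch 2 they overlapped, with 0.887, 0.662, 0.942 and 0.916 CPM in LF, 0.693, 1.04 and 1.19 CPM in HF and 0.367, 1.06, 0.691, 0.705 and 0.864 CPM in HF-LF. The log2 fold change was 0.93 ± 0.23 in batch 1 (edgeR adjusted p = 0.139), 0.21 ± 0.28 in batch 2 (edgeR adjusted p = 0.633) and 0.53 ± 0.19 over both (edgeR adjusted p = 0.0414). The call of Cck rests on single libraries. It was made in 5 of the 14 fits over both batches that left out 1 library (those without LF 1, LF 3, LF 4 or HF 1 of batch 2, or HF 2 of batch 1), whereas Gcg, Pyy, Insl5 and Nts were called in all 14. Without a filter on low counts Cck was not called either.

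Sct encodes secretin, which drives bicarbonate secretion. It ranged from 5.46 to 8.24 CPM in LF, 6.54 to 10.8 CPM in HF and 8.84 to 13.7 CPM in HF-LF of batch 1, and from 9.58 to 13.5, 13.6 to 15.0 and 7.61 to 13.8 CPM in batch 2. HF against LF gave a log2 fold change of 0.32 ± 0.17 over both batches (edgeR adjusted p = 0.152).

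The granins, the enzyme and the transcription factor did not follow the hormones past the threshold. Chga encodes chromogranin A (chr12:102554969-102565027, plus strand). It was at 55.9, 82.8, 83.4 and 85.6 CPM in LF, 67.8, 101 and 57.4 CPM in HF and 64.8, 87.7, 56.7 and 64.9 CPM in HF-LF of batch 1, and at 115, 90.4, 123 and 118 CPM, 121, 112 and 113 CPM, and 106, 87.0, 104, 110 and 115 CPM in batch 2. The diets overlapped in both batches. The log2 fold change of HF against LF was 0.01 ± 0.11 over both batches, with a 95% interval of -0.21 to 0.24 (edgeR adjusted p = 0.942). For Chgb, which encodes the second chromogranin, it was 0.25 ± 0.12 (edgeR adjusted p = 0.101). Without HF library 3 of batch 1, or without LF library 4 of batch 2, Chgb was called higher over both batches. LF libraries of Chgb ranged from 54.9 to 86.8 CPM and HF libraries from 66.2 to 107 CPM in batch 1, against 113 to 159 and 153 to 171 CPM in batch 2. Tph1 differed by 0.17 ± 0.11 (edgeR adjusted p = 0.260) and Neurod1 by -0.07 ± 0.13, with a 95% interval of -0.33 to 0.18 (edgeR adjusted p = 0.686). Neurod1 ranged from 1.92 to 3.51 CPM in batch 1 and from 2.68 to 4.10 CPM in batch 2.

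Within batch 1 alone, no gene of the 14428 tested was called between HF and LF by edgeR (0%), and so none of the 10. At an unadjusted p under 0.05, 5 of the 10 were higher in HF mice and 0 lower, where 12% of all genes tested were higher, and DESeq2 called 3 (Gcg, Insl5 and Nts), beside 2.5% of all genes in either direction. The HF and LF libraries did not overlap, with HF above, for 4 of the 10 (Gcg, Pyy, Cck and Nts), against 6.29% of all genes tested. Batch 2 alone gave calls for Gcg, Pyy and Insl5, 3 of 10, against 3.03% called higher among 14377 genes, and 6 of the 10 were higher at an unadjusted p under 0.05, against 16%. There HF lay above LF without overlap for 4 of the 10 (the same 3 and Sct), against 13.8% of all genes. The calls of batch 2 rest on few libraries: without HF library 2, 0 of the 10 and 15 of all genes were called, and without HF library 3, LF library 1 or LF library 3 only Pyy was. Without LF library 2, Gcg was not called. In batch 1, leaving out HF library 2 gave calls for Gcg and Cck among 1352 genes.

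**Figure D2:**
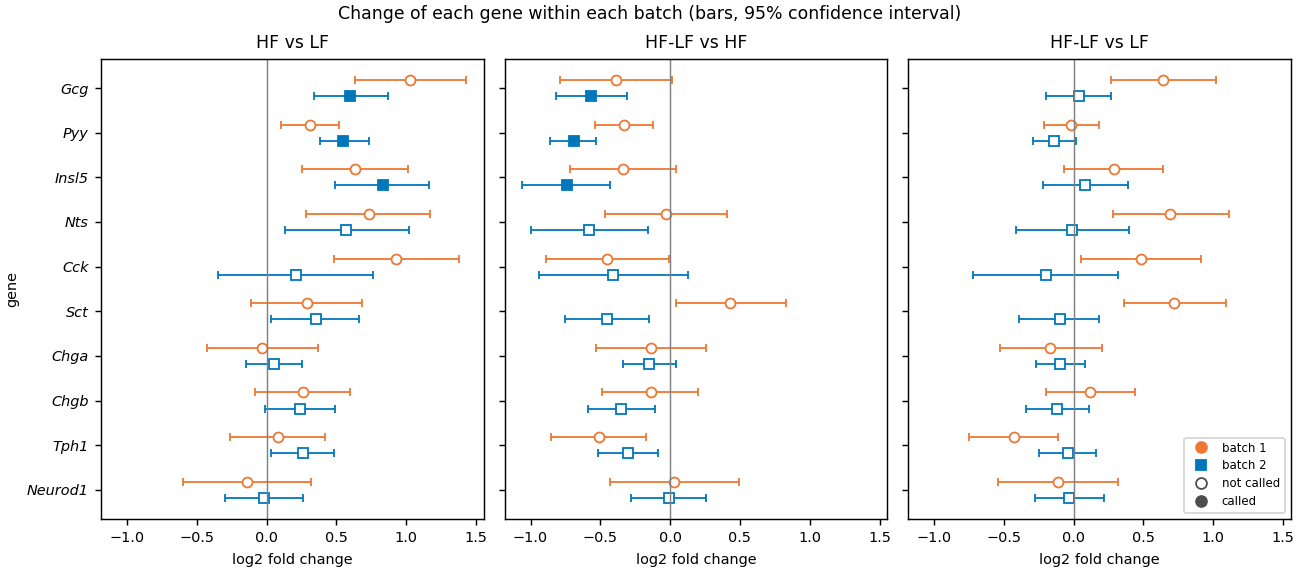
Log2 fold change of each of the 10 genes in 3 comparisons, in batch 1 (orange circles) and batch 2 (blue squares), with 95% confidence intervals and filled symbols for called genes. In HF against LF all 6 hormone genes lie above 0 in both batches, and in HF-LF against HF the filled symbols are those of Gcg, Pyy and Insl5 in batch 2.

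HF-LF mice were compared with HF mice to see what follows when the high-fat diet is withdrawn, and the HF libraries are the same as above. Over both batches 4 of the 10 genes fell: Pyy, Gcg, Insl5 and Tph1. Of all 14385 genes tested, 4.9% were called lower and 5.44% higher. The log2 fold change was -0.52 ± 0.07 for Pyy (edgeR adjusted p = 0.000812), -0.48 ± 0.14 for Gcg (edgeR adjusted p = 0.0250), -0.55 ± 0.14 for Insl5 (edgeR adjusted p = 0.0155) and -0.39 ± 0.11 for Tph1 (edgeR adjusted p = 0.0234). Nts, at -0.32 ± 0.18, and Cck, at -0.43 ± 0.19, were not called (edgeR adjusted p = 0.208 and 0.0980), nor was Chgb at -0.25 ± 0.11 (edgeR adjusted p = 0.112). Chga, at -0.14 ± 0.11, and Neurod1, at 0.01 ± 0.13, were not called either. For Pyy and Gcg, HF-LF lay below HF without overlap in each batch, 2 of 10 genes, against 0.994% of all genes tested. The median over the 10 genes was -0.35, against 0.01 over all genes tested. Without HF library 3 of batch 1, or without HF library 3 of batch 2, Gcg was no longer called, and Pyy, Insl5 and Tph1 were called in all 15 fits that left out 1 library.

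Tph1 was called here and not in HF against LF. Its level in batch 1 was 27.0, 35, 34.4 and 40.5 CPM in LF, 34.5, 41.9 and 32.1 CPM in HF and 25.6, 33.4, 19.6 and 22.8 CPM in HF-LF. In batch 2 it was 35.6, 28.0, 41.0 and 34.7 CPM in LF, 40.9, 41.0 and 43.0 CPM in HF and 30.5, 30.1, 39.7, 31.4 and 36.9 CPM in HF-LF. HF and HF-LF overlapped in batch 1 and did not in batch 2. Its log2 fold change was -0.51 ± 0.17 in batch 1 (edgeR adjusted p = 0.412) and -0.30 ± 0.11 in batch 2 (edgeR adjusted p = 0.0627).

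Taken singly, batch 1 gave 0 calls among the 10 and 1 among all genes (0.00693%), with 2 of the 10 lower and 1 higher at an unadjusted p under 0.05, where 6.04% of all genes tested were lower and 4.81% higher. DESeq2 called 0 of the 10 and 0.0728% of all genes. Batch 2 gave 3 calls, Pyy (-0.69 ± 0.08, edgeR adjusted p = 0.00202), Gcg (-0.57 ± 0.13, edgeR adjusted p = 0.0169) and Insl5 (-0.74 ± 0.16, edgeR adjusted p = 0.0147), against 5.61% of all genes called lower, and 7 of the 10 were lower at an unadjusted p under 0.05, against 17.9%. DESeq2 called 6 there, with Chgb, Tph1 and Sct added, beside 12.7% of all genes in either direction. Leaving out HF library 2 of batch 2 left only Pyy called, of 11 genes in all. Without HF library 3 of batch 2, Pyy and Insl5 were called, and without HF-LF library 3 of batch 2, 5 genes (Tph1 and Sct added). HF-LF lay below HF without overlap for 5 of the 10 in batch 2 (Pyy, Gcg, Insl5, Tph1 and Nts), against 12.4% of all genes, and for 3 in batch 1 (Pyy, Gcg and Cck), against 4.07%.

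Between HF-LF and LF mice, which ended on the same low-fat diet, 0 of the 10 genes were called by edgeR or DESeq2 in batch 1, in batch 2 or over both. Of all genes, edgeR called 0% in batch 1, 0.00696% in batch 2 and 0% over both, and DESeq2 called 0.0416%, 0.078% and 0.0303%. Over both batches 2 of the 10 had an unadjusted p under 0.05, Gcg higher (0.32 ± 0.13) and Tph1 lower (-0.22 ± 0.10), both with an edgeR adjusted p of 0.980, and 4.11% of all genes passed that limit. The values of each batch were as follows. In batch 1, 4 of the 10 were higher at an unadjusted p under 0.05, against 2.5% of all genes tested: Gcg (0.64 ± 0.19), Nts (0.69 ± 0.21), Sct (0.72 ± 0.19) and Cck (0.48 ± 0.22), each with an edgeR adjusted p of 0.792. Tph1 alone was lower at that limit (-0.43 ± 0.16, edgeR adjusted p = 0.792), against 2.79%. The libraries of HF-LF lay above those of LF without overlap for Nts, Sct and Cck, against 0.846% of all genes. In batch 2, 0 of the 10 passed that limit, against 4.65% of all genes, and the differences were 0.04 ± 0.12 for Gcg, -0.01 ± 0.20 for Nts, -0.10 ± 0.15 for Sct and -0.20 ± 0.26 for Cck. The LF and HF-LF libraries are those of the comparisons above.

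Whether a diet effect differed between the batches was tested as an interaction, and 0 of the 10 genes and 0 of all 14385 were called in any of the 3 comparisons by edgeR (smallest adjusted p among the 10, 0.632). At an unadjusted p under 0.05 there were 0 of the 10 in HF against LF, where 6.56% of all genes passed, 2 in HF-LF against HF (Pyy and Sct, against 7.68%) and 3 in HF-LF against LF (Gcg, Sct and Nts, against 7.58%). Sct had the lowest p in HF-LF against HF, with a log2 fold change of 0.43 ± 0.20 in batch 1 and -0.45 ± 0.15 in batch 2. The difference was -0.89 ± 0.27 (edgeR adjusted p = 0.641). In batch 1, HF-LF libraries of Sct had 10.8, 8.84, 11.4 and 13.7 CPM and HF libraries 10.8, 7.44 and 6.54 CPM. In batch 2 they had 7.61, 11.6, 13.8, 9.06 and 11.1 CPM, against 13.6, 15.0 and 15.0 CPM in HF. In HF-LF against LF the batches differed by -0.84 ± 0.25 for Sct and -0.62 ± 0.24 for Gcg (edgeR adjusted p = 0.632 for both).

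To set hormones against a granin, each gene was expressed as a log2 ratio to Chga in its library. Enterochromaffin cells are rich in chromogranin A, so the ratio of an L cell hormone to Chga can set 1 cell type against another. It does not give hormone RNA per cell or per granule. Diets were compared with a two-sided exact permutation test with labels exchanged within batches, adjusted over 27 tests. Gcg, Insl5 and Chgb rose relative to Chga in HF against LF mice, 3 of 9 genes. Ratios of genes outside the 10 to Chga were not computed, so no share over all genes stands beside this count. Gcg was at 13.1% to 26.6% of the Chga level in LF and 30.2% to 65.9% in HF libraries of batch 1, and at 26.4% to 29.7% and 33.3% to 48.8% in batch 2. The 2 diets did not overlap in either batch. The mean difference was 0.82 on the log2 scale (exact permutation p = 0.000816, the smallest the test can give, adjusted p = 0.0220). Insl5 was at 9.59% to 19.6% of Chga in LF and 16.2% to 32.0% in HF of batch 1, and at 11.8% to 14.6% and 21.6% to 24.7% in batch 2, with a mean difference of 0.70 (exact permutation p = 0.00245, adjusted p = 0.0220). Chgb was at 90.6% to 101% of Chga in LF and 106% to 137% in HF of batch 1, and at 109% to 135% and 135% to 141% in batch 2, with a mean difference of 0.25 (exact permutation p = 0.00245, adjusted p = 0.0220).

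Pyy, Nts and Tph1 were higher relative to Chga by 0.42, 0.67 and 0.17 and did not pass (adjusted exact permutation p = 0.105, 0.0749 and 0.105). None of the 9 ratios passed in HF-LF against HF or against LF, and 1 came near, that of Tph1 in HF-LF against HF (-0.28, adjusted exact permutation p = 0.0551). The HF library 2 of batch 1, with the highest Chga level of its group (101 CPM), bears on these ratios: without it 7 of the 9 passed in HF against LF and 3 (Pyy, Insl5 and Tph1) in HF-LF against HF. Without HF library 1 of batch 1 or HF library 2 of batch 2 none passed in HF against LF, and without LF library 2, 3 or 4 of batch 1 only Gcg did. Without LF library 1, 2 or 3 of batch 2, Gcg and Chgb passed and Insl5 did not. Without HF-LF library 2 or 3 or HF library 1 of batch 2, Tph1 passed in HF-LF against HF. Within 1 batch the test cannot give an unadjusted p below 0.0286 in HF against LF, and none passed.

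**Figure D3:**
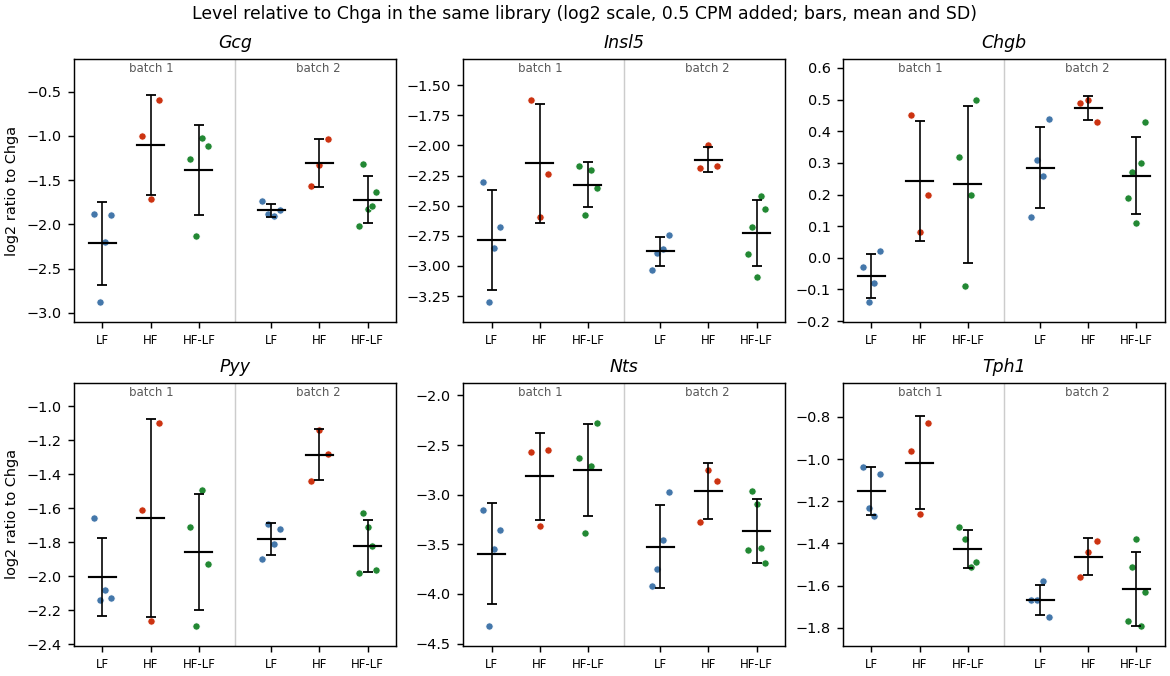
Log2 ratio of 6 genes to Chga in each library, with 0.5 CPM added to both, by diet and batch. Points are libraries and bars are the mean and SD. For Gcg all HF libraries lie above all LF libraries within each batch.

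Other genes with a role in enteroendocrine cells, or in the response to their hormones, were taken from 7 lists. Some lay far above Chga, at up to 1240 CPM against 76.9 CPM in LF mice of batch 1. The RNA of listed genes need not come from enteroendocrine cells, and its source was not tested. In HF against LF over both batches 12 of the 73 tested genes of these lists were called, beside 18.1% of all genes (9% higher and 9.11% lower). Of 10 other hormone genes 4 were expressed highly enough to be tested (Sst, Ghrl, Tac1 and Iapp), and their median log2 fold change in HF against LF was 0.47 over both batches. Of these, 1 rose, Tac1, which encodes substance P (0.41 ± 0.15, edgeR adjusted p = 0.0400). The difference of Tac1 was 0.77 ± 0.22 in batch 1 and 0.03 ± 0.13 in batch 2. Among the 9 tested genes of prohormone processing and other granins, 2 rose and 1 fell. The secretogranin gene Scg3 rose (0.65 ± 0.15, edgeR adjusted p = 0.00656), as did Cpe, which encodes a carboxypeptidase that trims prohormones (0.40 ± 0.14, edgeR adjusted p = 0.0313), and Pcsk1n, which encodes an inhibitor of a prohormone convertase, fell by 0.49 on the log2 scale (SE 0.17, edgeR adjusted p = 0.0364). The 15 genes of vesicle release held 3 that fell, Rph3al (-0.37 ± 0.11, edgeR adjusted p = 0.0206), Cplx2 (-0.40 ± 0.12, edgeR adjusted p = 0.0225) and Vamp2 (-0.27 ± 0.09, edgeR adjusted p = 0.0367), and 0 that rose.

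Of 9 tested genes of serotonin synthesis and enterochromaffin cells, 2 rose in HF mice and 0 fell, beside 9% of all genes called higher. These were Ddc, whose enzyme follows that of Tph1 in serotonin synthesis (0.32 ± 0.07, edgeR adjusted p = 0.00570), and Gch1, whose product starts the synthesis of the cofactor of Tph1 (0.36 ± 0.08, edgeR adjusted p = 0.00635). Both fell in HF-LF against HF, Ddc by 0.27 and Gch1 by 0.28 on the log2 scale (edgeR adjusted p = 0.0164 and 0.0244). In batch 2 alone Gch1 was called in both comparisons (0.40 ± 0.10 and -0.37 ± 0.10, edgeR adjusted p = 0.0382 and 0.0259) and Ddc in the second (-0.28 ± 0.07, edgeR adjusted p = 0.0189). Of 17 transcription factors of the lineage, 1 was called in HF against LF, Mlxipl, a glucose-responsive factor (-0.37 ± 0.12, edgeR adjusted p = 0.0299). Neurog3, the factor that commits cells to the lineage, was at 0.81 ± 0.34 and was not called (edgeR adjusted p = 0.0771), with mean levels of 1.26 CPM in HF and 0.716 CPM in LF mice. None of 12 tested nutrient sensors was called by edgeR (0 at an unadjusted p under 0.05), the short-chain fatty acid receptor Ffar2 among them (0.18 ± 0.14). Of 7 tested hormone receptors 2 were called, both lower: Glp2r, the receptor of GLP-2 (-0.90 ± 0.27, edgeR adjusted p = 0.0196, at 0.274 CPM in HF and 0.515 CPM in LF), and Htr4, a serotonin receptor (-0.27 ± 0.08, edgeR adjusted p = 0.0142).

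**Figure D4:**
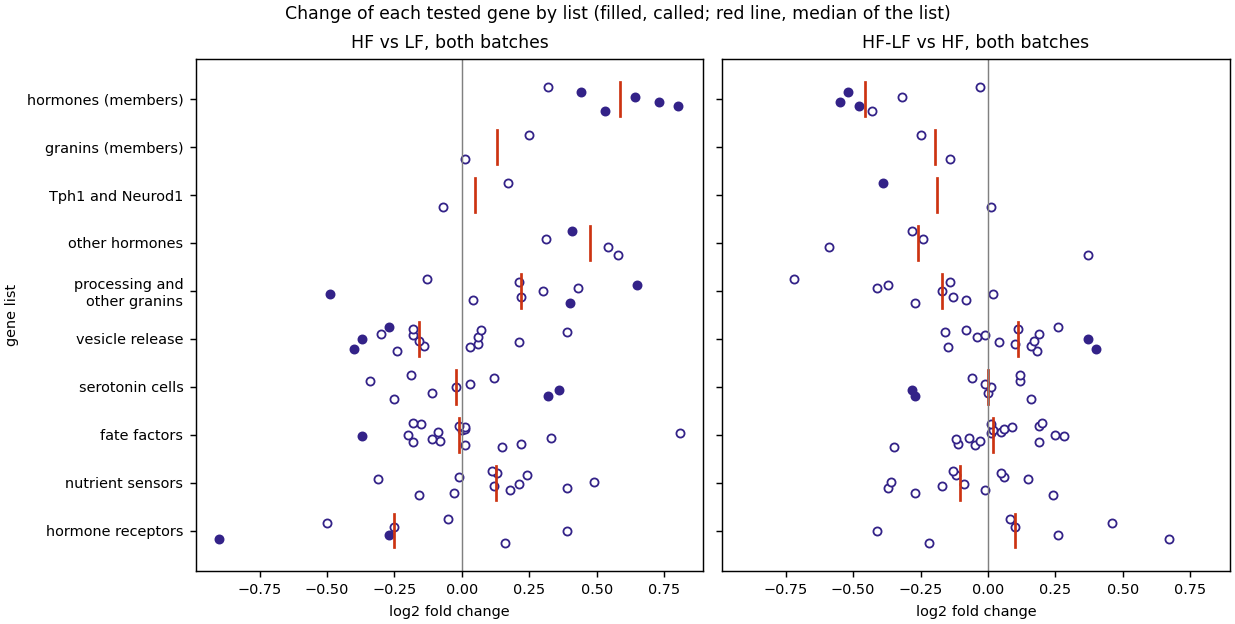
Log2 fold change over both batches of each tested gene of 10 lists, for HF against LF (left) and HF-LF against HF (right), with filled points for called genes and a red line at the median of each list. The 6 hormone genes have a median of 0.59 in HF against LF and of -0.46 in HF-LF against HF, and the fate factors have medians of -0.01 and 0.02.

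The median log2 fold changes of the lists in HF against LF were 0.22 for processing and other granins, -0.16 for vesicle release, -0.02 for serotonin cells, -0.01 for fate factors, 0.13 for nutrient sensors and -0.25 for hormone receptors, beside -0.01 for all genes tested. In HF-LF against HF over both batches, 4 of the 73 tested genes of these lists were called, beside 10.3% of all genes (4.9% lower and 5.44% higher). Besides Ddc and Gch1 these were Rph3al (0.37 ± 0.11, edgeR adjusted p = 0.0276) and Cplx2 (0.40 ± 0.12, edgeR adjusted p = 0.0309), which rose. Scg3, at -0.37 ± 0.14, and Cpe, at -0.27 ± 0.13, were not called (edgeR adjusted p = 0.0759 and 0.149). In batch 2 alone 5 of 75 tested list genes were called in HF against LF, and 12 of 75 in HF-LF against HF. Of all genes, 7.44% and 14.5% were called there. The 12 were 3 of vesicle release and 2 fate factors, all higher, 1 higher and 2 lower of serotonin cells, 1 hormone receptor each way, and 1 lower each of other hormones and of processing. Cpe was called there in HF against LF (0.58 ± 0.15, edgeR adjusted p = 0.0369) and in HF-LF against HF (-0.60 ± 0.14, edgeR adjusted p = 0.0177). In HF-LF against LF 0 genes of these lists were called by edgeR, and 4 of the 73 tested had an unadjusted p under 0.05, beside 4.11% of all genes: Ghrl (0.94 ± 0.37) and Neurog3 (0.82 ± 0.32), which were higher, and Vgf (-0.85 ± 0.23) and Pcsk1n (-0.47 ± 0.15), which were lower.

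How the 10 genes varied together was read from log2 CPM centred on the mean of each diet and batch, so that differences between diets and batches play no part. Of 45 pairs 38 correlated positively across the 23 libraries, with a median Pearson's r of 0.28 and a range of -0.14 to 0.83, and 5 pairs passed a permutation test (100000 permutations within diet and batch, two-sided, adjusted over 45 pairs). The libraries of a pair share their depth and the cells present in each preparation. Pairs of other genes were not put through this test, so no share over all genes stands beside these counts. The closest of the 45 pairs was Chga with Tph1, both abundant in enterochromaffin cells (r = 0.83, adjusted permutation p = 0.00135, rho = 0.79, adjusted permutation p = 0.00345). Some genes outside the 10 were closer to Chga, such as Baz1b (r = 0.92). For Chga with Tph1 the values by batch follow. Within batch 1 its r was 0.90, within batch 2 it was 0.70, and without the 2 libraries farthest from the median of Chga it was 0.81. Chga with Chgb followed (r = 0.81, adjusted permutation p = 0.00382, rho = 0.74, adjusted permutation p = 0.00936, r = 0.81 and 0.84 within batches 1 and 2, and 0.74 without 2 libraries). Chgb with Neurod1 gave r = 0.77 (adjusted permutation p = 0.00240, rho = 0.78, adjusted permutation p = 0.00345, 0.78 and 0.75 within batches, 0.68 without 2 libraries).

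Among the hormones, Sct with Nts gave r = 0.72 (adjusted permutation p = 0.00135, rho = 0.77, adjusted permutation p = 0.00345, 0.71 and 0.74 within batches, 0.73 without 2 libraries) and Gcg with Cck r = 0.58 (adjusted permutation p = 0.00540, rho = 0.73, adjusted permutation p = 0.00720, 0.47 and 0.86 within batches, 0.71 without 2 libraries). Gcg with Chga stood at r = -0.11 and Pyy with Chga at -0.08.

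**Figure D5:**
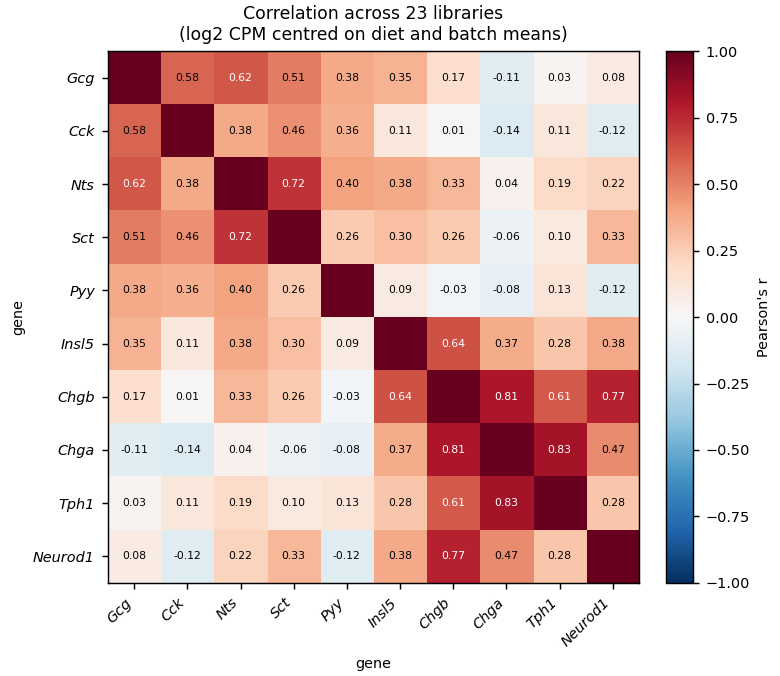
Pearson's r of each pair of the 10 genes across 23 libraries, from log2 CPM centred on diet and batch means, on a colour scale from -1 (blue) to 1 (red). The pairs among Chga, Chgb, Tph1 and Neurod1 lie between 0.28 and 0.83, those among Gcg, Cck, Nts and Sct between 0.38 and 0.72, and Chgb with Insl5 at 0.64.

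Summed markers of other cells were set against the members across the same centred libraries. The sum of smooth muscle markers correlated with Chga at r = 0.72 and with Chgb at r = 0.67 (rho = 0.66 and 0.57), and neither passed after adjustment over 40 relations (adjusted permutation p = 0.0992 for both). Within batch 2 these were 0.57 and 0.34, and within batch 1 0.80 and 0.87. The same sum gave r = 0.59 with Tph1, 0.51 with Insl5 and -0.04 with Gcg. The sum of enteric neuron markers gave r = 0.63 with Chga (rho = 0.55), 0.57 with Chgb (rho = 0.55) and -0.51 with Pyy (rho = -0.49). The sum of the genes listed for mast cells, nearly all of it Kit, gave 0.62 with Chgb (rho = 0.57). None of these passed after adjustment (adjusted permutation p at least 0.111 for r). Their part in the results was not tested. The sum of 6 Hox genes of the posterior gut (Hoxb13, Hoxa13, Hoxd10, Hoxd11, Hoxd12 and Hoxd13), a marker of distal colon, correlated with Gcg at r = -0.64 (adjusted permutation p = 0.111) and rho = -0.77 (adjusted permutation p = 0.0128), with r = -0.54 in batch 1, -0.83 in batch 2 and -0.68 without 2 libraries. That sum ranged from 250 to 394 CPM in LF, 304 to 326 in HF and 204 to 309 in HF-LF libraries of batch 1, and from 277 to 361, 278 to 359 and 274 to 334 CPM in batch 2, so the diets overlapped. With Pyy and Insl5 it stood at r = -0.01 and 0.02. Most of this sum was Hoxb13, at 152 to 294 CPM in the libraries, while every other Hox gene listed stayed at or below 56.5 CPM. The study shows Hoxb13 as an example of an obesity-related change that persisted after short-term weight loss, among DNA methylation changes of younger mice. In the mice described here, 0 of the 6 Hox genes were called in any comparison over both batches. The sum may not mark position alone, which was not tested. The part of this sum in the differences between diets was not tested.

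Of 14375 other genes, those most like the mean of the 10 standardized members across the centred libraries were Tesc (r = 0.83), Dus4l (0.80), Tle1 (0.79), Zbtb7c (0.79), Top1 (0.78), Tbl2 (0.77), Dcbld1 (0.77), Ttc4 (0.76), Cpe (0.76) and Eno1b (0.75). The 99th percentile over all of these genes was 0.58. For single members the 3 genes most alike were Baz1b (r = 0.92), Zbtb40 (0.92) and Per2 (0.91) for Chga, Eif2ak3 (0.85), Plod1 (0.84) and Cpe (0.83) for Chgb, and Runx1t1 (0.90), Rabl6 (0.87) and Usp10 (0.87) for Tph1. For the L cell hormones they were Trim35 (0.87), Capn6 (0.82) and Galnt12 (0.82) for Gcg, Anapc4 (0.83), Ddx28 (0.81) and Zdhhc16 (0.75) for Pyy, and Cpe (0.87), Rian (0.79) and 2810442I21Rik (0.79) for Insl5. Those of Sct were Cyp2c55 (0.86), Defb37 (0.84) and Cpn1 (0.83), those of Nts were Ruvbl1 (0.79), Fkbpl (0.75) and Panx1 (0.73), those of Cck were Ltc4s (0.76), Hsd3b3 (0.73) and Rgs13 (0.73), and those of Neurod1 were Arih1 (0.86), Cpeb1 (0.80) and Dner (0.80). These correlations describe 23 libraries and were not tested.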

How the data were processed

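The authors released colonic epithelium with EDTA, sequenced total RNA as TruSeq Stranded Ribo-Zero Gold libraries, trimmed reads with cutadapt 1.2.1, aligned them to mm10 with STAR 2.5 and deposited raw counts per gene from featureCounts 1.5.0-p1 (tools per the labels and the study's methods). The strand setting and the handling of multiply mapped reads are not given in the sources used here. Diet, batch and number came from the labels. Totals were 29189922 to 46498521 counts per library in batch 1 and 31607019 to 65320947 in batch 2, and intervals cover the spread between libraries, while the 3-count floor covers counting error only.

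Counts were tested with edgeR 4.0.16 in R 4.3.3 (filterByExpr, TMM, quasi-likelihood F test, two-sided, Benjamini-Hochberg adjustment over all genes tested), with diet in each batch and with diet and batch over both batches, and diet by batch as an interaction. Calls followed the study's thresholds, an adjusted p below 0.05 together with a change of more than 1.2-fold. The study itself used DESeq2, which was run as an alternative (1.42.0), as was limma 3.58.1. SEs were derived from the F statistic. Nothing in the labels shows that libraries of a diet are separate mice across batches, so p-values measure the spread between libraries. Ratios and correlations were computed in Python 3.11.15. The ratio test exchanged diet labels within batches. The script was tested on simulated counts. Promoter sequences came from a RefSeq table (GRCm38.p6), in which all 10 genes were matched.

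All 10 genes were named in each comparison. Of each other list, up to 3 called genes with the lowest adjusted p were named, together with the 10 genes most like the mean of the members and the 3 most like each member; Tff3, Smoc2, Axin2, Kit, Pdgfra, Actg2, Neurog3, Ffar2, Ghrl, Vgf, Ret, Chat and Sox10 were named after their values were seen. The members and lists were chosen with earlier results of these data known. In 79 pairs of libraries of 1 diet the chi-square per degree of freedom was at least 11.3, so no library was counted as a duplicate. Alternatives were other tools, scalings, filters, thresholds, a replicate block and leaving out each library. They were read for the 10 genes and for the number of all genes called, not for the other lists.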

Additional observations from a re-analysis of the deposited data

Results flagged for a closer look

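Among 40 groups of 4 or 5 libraries (10 genes in 4 groups), 2 held a library far from the rest by Dixon's criterion, and chance flags about 1 in 20. Chga in LF library 1 of batch 1 was at 55.9 CPM, against 82.8 to 85.6 CPM in the other LF libraries of that batch, a gap of 0.907 of the group's range. Gcg in LF library 2 of batch 2 was at 24.2 CPM, against 32.4 to 34.0 CPM, a gap of 0.842 of the range. Without the first library the log2 ratios of Gcg and Insl5 to Chga still passed in HF against LF, and that of Chgb did not. Without the second, Gcg was not called in HF against LF in batch 2 alone and was called over both batches.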

How the results depend on the processing

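No called result of the 10 genes changed direction under any setting. Over both batches, Pyy, Gcg, Insl5 and Nts in HF against LF and Pyy, Insl5 and Tph1 in HF-LF against HF were called under all 10 other settings and without each library. The members called ranged from 4 to 6 in HF against LF and 3 to 4 in HF-LF against HF without single libraries (all genes 1591 to 3703 and 501 to 2669), and in HF-LF against LF it was 0 in every fit, single batches included (0 to 8 of all genes called in batch 1, 0 to 16 in batch 2 and 0 to 7 over both). In batch 1, HF against LF gave 0 members by edgeR, 3 by DESeq2 with either shrinkage setting (480 of all genes), 5 by limma voom with sample weights (2422) and 0 to 2 without single libraries. HF against LF in batch 2 gave 3, and 0 to 4 without single libraries (all genes 15 to 2560, against 1069, and 1855 by DESeq2 and 1991 by voom). HF-LF against HF in batch 2 gave 3, but 6 by DESeq2 with either shrinkage setting, without a filter and with only the diets compared, 5 by voom and by DESeq2 size factors, and 1 to 5 without single libraries (all genes 11 to 2778, against 2084). HF-LF against HF in batch 1 gave 0 members throughout, with 0 to 14 of all genes. Without the fold limit, 4079 and 2371 of all genes were called over both batches, against 2605 and 1488. The ratio to Chga passed for 3 genes in HF against LF, for 0 in batch 1 alone and 0 in batch 2 alone, and for 0 to 7 without single libraries, and in HF-LF against HF for 0 to 3. Causes of these changes were not tested. Fits of single batches and fits that left out a library held fewer samples.

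The deviations of libraries with the same number in a batch correlated at -0.381 to 0.386 in batch 1 and -0.119 to 0.389 in batch 2, above 0.1 in 5 of 10 and 4 of 10 pairs. Pairs with other numbers were above 0.1 in 8 of 30 and 9 of 37. Same-numbered pairs leaned higher, with a median r of 0.069 and 0.076 against -0.016 and -0.043. As the values spread widely on both sides of 0, the main fits did not pair the libraries by number. The 3 HF-LF and HF pairs of batch 1 were all above 0.1 (0.111 to 0.386), and there the block called 0 members and 0 of all genes, against 0 and 1 without it. The number as a replicate block gave 2 members called in HF against LF in batch 1 (92 of all genes, against 0), 5 in HF against LF in batch 2 (2080 of all genes) and 7 in HF-LF against HF in batch 2 (2815), and 5 in each of these comparisons over both batches (Chgb in place of Cck in HF against LF, and Chgb added in HF-LF against HF). A block across batches, by voom, gave 5 and 4. Cck, at 12 to 78 counts, is the member most limited by depth.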
